A study of Homo sapiens with 18 samples.

Results

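The 8 genes described here encode the main HSP90, HSP70 and HSP60 chaperones and the HSP60 partner: HSP90AB1, HSP90AA1, HSP90B1, HSPA8, HSPA5, HSPA9, HSPD1 and HSPE1. They belong to several chaperone families and were chosen by name, with no threshold on a value but with earlier results of these data known. Other HSP90 and HSP70 family genes are not among the 8 and are described below as a separate list. All 8 were found among 59665 placed genes of the RefSeq table for GRCh38.p14. A peak was counted for a gene when it overlapped the annotated span by at least 1 bp. The peaks come from eCLIP, in which ultraviolet light links a protein to RNA, the protein is precipitated and the attached RNA fragments are sequenced. U2OS cells, from a human osteosarcoma, were labelled MYC-KO and carried FLAG-tagged MYC under a Tet-On system. The tagged protein was MYC-WT, MYC-3A or MYC-7A, and neither the mutated residues nor the clonality of the lines is stated. Per allele, 2 FLAG immunoprecipitates and 1 input came from cells on doxycycline (1 µg/mL, 24 h) and as many from cells given PBS, which makes 18 libraries in 12 groups. The lists used here are those labelled with doxycycline, 1 per allele, with 2149 wild-type, 103 3A and 88 7A peaks. No value below has a replicate, sequencing depth is unknown, and the input and PBS libraries were not analysed here.

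Chaperones hold other proteins in a state in which they can fold. HSP90 proteins take client proteins such as kinases and steroid receptors late in folding, and HSP70 proteins bind short exposed stretches early and pass clients on with the help of J-domain partners. HSP60 and its lid HSP10 form a closed chamber in the mitochondrial matrix, while HSP90B1 and HSPA5 work in the endoplasmic reticulum and HSPA9 in mitochondria. MYC is known as a transcription factor that binds the DNA sequence CACGTG, called the E-box, together with its partner MAX. The peaks here are of RNA that came down with MYC, which is a different measurement.

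Every one of the 8 genes held at least 1 wild-type peak, 1 gene held 3A peaks and none held a 7A peak. Among 20037 protein-coding genes, 6.78% had a wild-type peak, 0.359% a 3A peak and 0.270% a 7A peak. The genes were named with earlier results of these data known, so the 8 of 8 is a description. They held 26 wild-type peaks, which is 1.21% of that list (95% Wilson interval 0.827 to 1.77, counting error over peaks only). The 3A list had 2 such peaks, 1.94% (Wilson interval 0.534 to 6.81). The 7A list had 0 of 88, which allows a share of up to 3.41%, so a 7A share as high as that of wild type would not be detectable in a list of this length. All 28 peaks lay on the strand of their gene, as 94.6% of wild-type peaks in protein-coding genes with a listed strand did. Of marker genes, 1 of 7 for mesenchymal or bone cells (VIM) and 0 of 8 for epithelial, blood, liver or glial cells had a wild-type peak, and a peak list does not measure expression. More RNA of a gene and more MYC per RNA cannot be told apart from these lists.

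**Figure D1:**
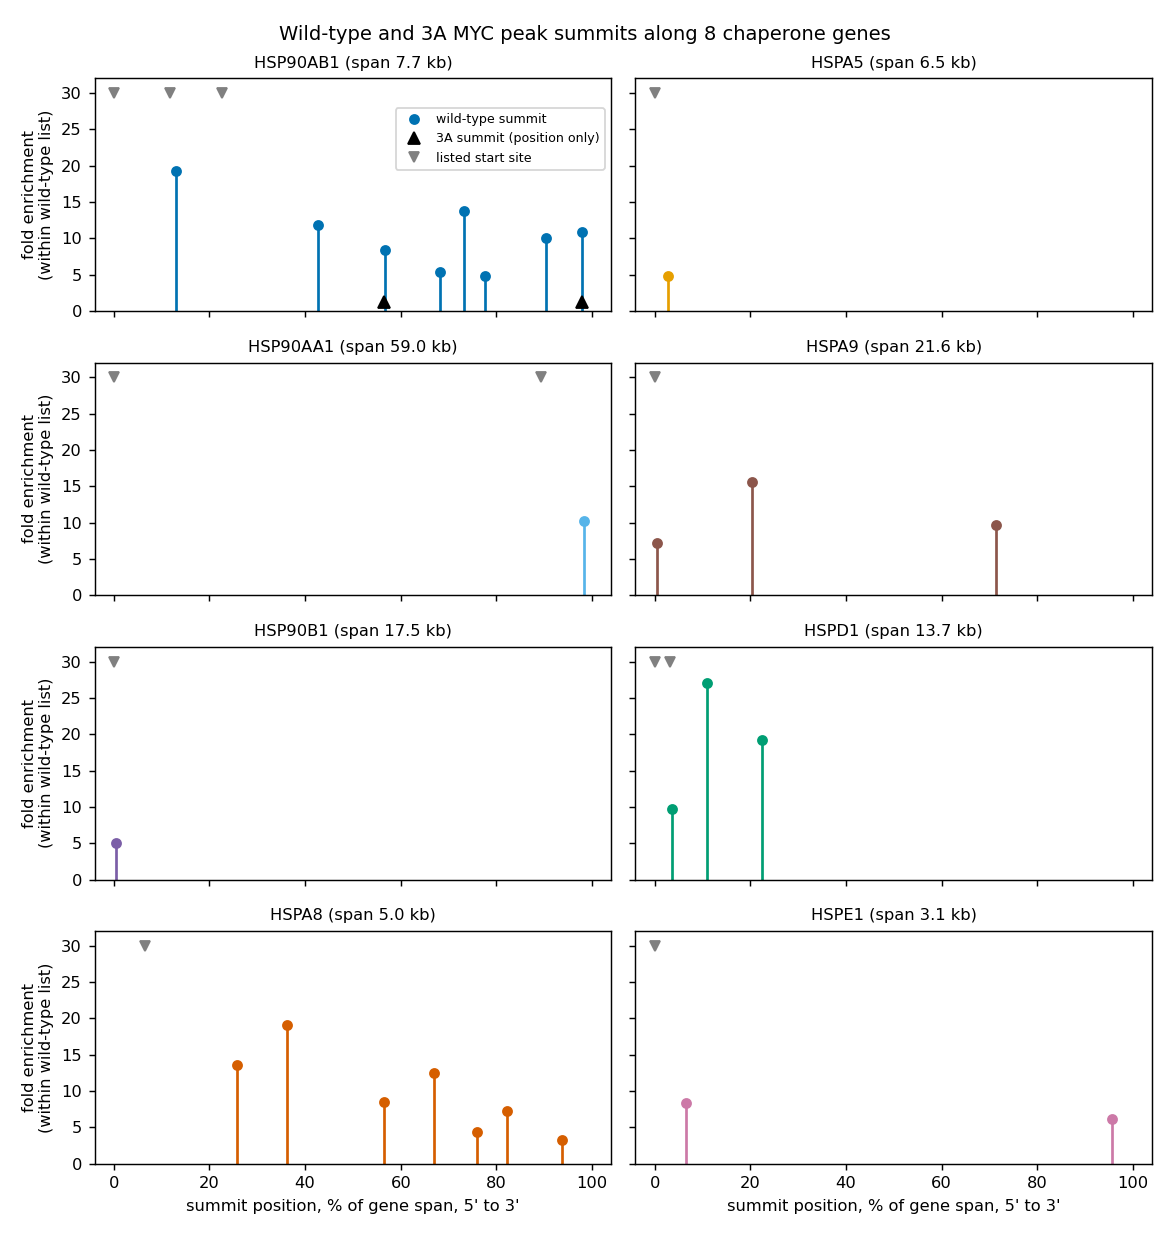
Summit positions in each of the 8 genes as a percentage of the gene span from 5′ to 3′ (x axis) against the authors' fold enrichment in the wild-type list (y axis). Circles are wild-type summits, black triangles at the bottom are the positions of the 2 3A summits, and grey triangles at the top are start sites listed by RefSeq. Summits are spread along HSP90AB1 and HSPA8, lie only near the start in HSP90B1 and HSPA5, and lie only near the end in HSP90AA1.

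HSP90AB1 encodes the constitutive cytosolic HSP90 and lies on chromosome 6 from 44246194 to 44253883 on the plus strand. With 8 wild-type peaks it had the most of the 8 genes, and at least 7 were found in 0.0699% of all protein-coding genes and in 1.03% of the 1359 with a wild-type peak. From 5′ to 3′ the authors' fold enrichments were 19.2, 11.8, 8.32, 5.29, 13.8, 4.81, 10.1 and 10.8. The −log10 q values in the same order were 113, 95.3, 99.7, 40.9, 151, 68.6, 111 and 243. By fold enrichment the peaks ran from rank 111 to rank 1801 of 2149, whereas by −log10 q they ran from rank 11 to rank 341. The first peak had the highest fold enrichment and the last peak the highest −log10 q. The peaks covered 2028 bp, 26.4% of the span, and neighbouring peaks were 113 to 1903 bp apart.

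RefSeq lists 3 starts for HSP90AB1, and the first peak began 10 bp after the middle one, at 44247101, with its summit 94 bp after it. The opening bases of this peak are shown because they mark where the called peak begins relative to that start. They are at chr6:44247111-44247140 on the plus strand in GRCh38.p14, written as DNA with no base marked.
HSP90AB1: actccggcgcagtgttgggactgtctgggt
The remaining 7 summits lay 42.7% to 97.8% along the span, and 2 of them in its last 20%. The tables used here give no exons or coding regions, so none of these peaks was placed in an exon, intron or untranslated region.

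HSP90AB1 was also the member with mutant peaks. The first 3A peak, from 44250423 to 44250620, was enriched 4.94-fold (rank 58 of 103) with a −log10 q of 49.8 (rank 32). The other 3A peak, at 44253545 to 44253819, was enriched 8.40-fold (rank 36) with a −log10 q of 146 (rank 7). Both lay wholly within a wild-type peak. Their starts differed from the wild-type starts by 15 and 11 bp and their summits by 21 and 4 bp. The wild-type peak met by the latter was the HSP90AB1 peak of highest −log10 q, rank 11 of 2149, and the other had rank 58. The wild-type peak with the highest fold enrichment in the gene, at the start, had no 3A counterpart in the list. Fold enrichments were not compared between lists, since the depth, control and threshold behind each list are unknown.

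A 3A peak met 2 of the 26 wild-type peaks in the chaperone genes, 7.69%, against 3.54% of all 2149 wild-type peaks. The peaks of highest −log10 q were met more often throughout the list, at 37.0% of the top 100 and 1.90% of the others. Of the 26, 6 were in the top 100, all of them in HSP90AB1, and 2 of these 6 were met. None of the other 20 was met by 3A. For 7A the list met 1.40% of all wild-type peaks, 10.0% of the top 100 and 0 of the 26. These counts are small and describe the lists, with no test between alleles.

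HSP90AA1 encodes the stress-inducible cytosolic HSP90 and lies on chromosome 14 from 102080742 to 102139749 on the minus strand. It held 1 wild-type peak, from 102081590 to 102081792, enriched 10.2-fold (rank 720) with a −log10 q of 43.9 (rank 306). The summit lay 98.3% along a span of 59008 bp and 5324 bp after the nearer of the 2 listed starts. Thus the paralogue with the longer span had 1 peak near its end, and HSP90AB1, with a span of 7690 bp, had 8. The nearer listed start of HSP90AA1 lies 89.3% along its span, so most of that span lies upstream of this start. Neither listed start of HSP90AA1 had a summit within 500 bp, and WDR20, which overlaps its upstream end, shared no peak with it.

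HSPA8 encodes HSC70, the constitutive cytosolic HSP70, and lies on chromosome 11 from 123057489 to 123062462 on the minus strand. It held 7 wild-type peaks in a span of 4974 bp. From 5′ to 3′ the fold enrichments were 13.6, 19.1, 8.51, 12.5, 4.41, 7.23 and 3.34. The −log10 q values were 51.7, 56.4, 49.9, 53.6, 10.1, 30.6 and 15.7. The highest fold enrichment lay in the second peak, from 123060564 to 123060723 (rank 113), and the last peak was the lowest, at rank 2054. Both measures were lower in the final 3 peaks than in any of the first 4. Peaks covered 30.9% of the span, the largest part among the 8 genes, with gaps of 154 to 589 bp.

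The listed start of HSPA8 had no peak near it: the first summit lay 953 bp after the start at 123062136. HSPA8 is also the host of 3 small nucleolar RNA genes, SNORD14E, SNORD14D and SNORD14C, whose products guide chemical marks on ribosomal RNA. No peak overlapped any of them, and the nearest peaks were 105, 55 and 77 bp away. The 7 peaks therefore lay off the embedded snoRNA genes, and some of them lay upstream of all 3. HSPA8 had no mutant peak, and its highest −log10 q ranked 180 of 2149.

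**Figure D2:**
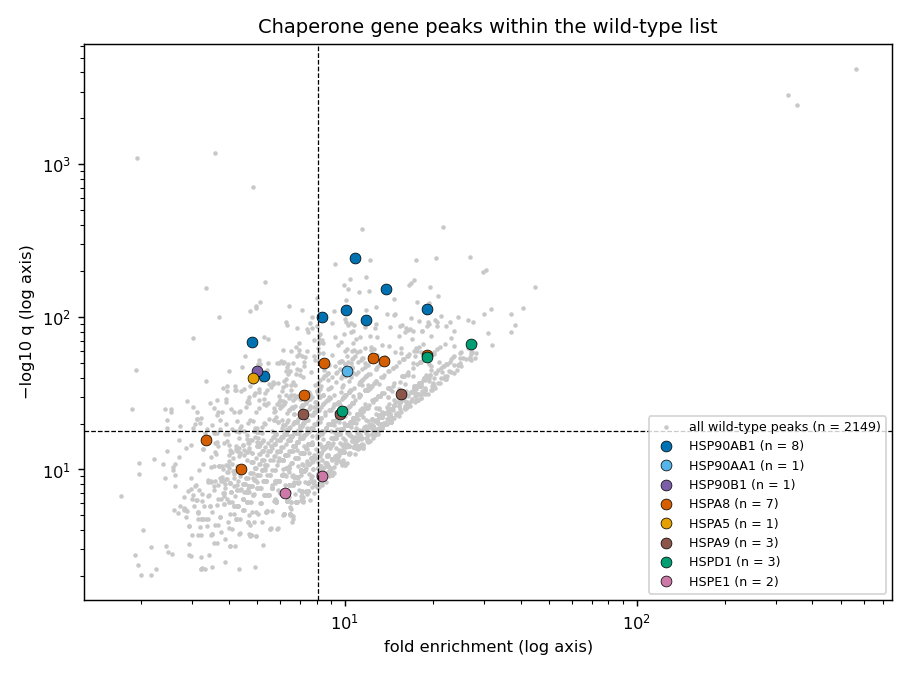
The authors' fold enrichment (x axis, log scale) and −log10 q (y axis, log scale) of each of the 2149 wild-type peaks in grey, with the 26 chaperone gene peaks coloured by gene and dashed lines at the list medians, 8.11 and 17.8. HSP90AB1 peaks sit high by −log10 q, the HSP90B1 and HSPA5 peaks lie left of the median fold enrichment and above the median −log10 q, and the HSPE1 peaks lie below the latter.

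Within the wild-type list the chaperone peaks stood higher by −log10 q than by fold enrichment. Their median fold enrichment was 9.69 against 8.11 for the list, and 17 of 26 were at or above the list median. Their median −log10 q was 47.2 against 17.8, and 22 of 26 were at or above the list median. As percentiles of the list the medians were 62.4 for fold enrichment (95% interval of the median 41.3 to 80.0) and 87.5 for −log10 q (74.6 to 93.8). These intervals treat the 26 peaks as independent, although 57.7% of them came from HSP90AB1 and HSPA8. The median width was 198 bp against 165 bp, with a range of 116 to 476 bp.

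The chaperones of the endoplasmic reticulum had a pattern of their own among the 8, a single wild-type peak close to the start. HSPA5, which encodes BiP, the HSP70 of that compartment, lies on chromosome 9 from 125234853 to 125241343 on the minus strand. Its peak, from 125241013 to 125241241, was enriched 4.84-fold (rank 1795) at a −log10 q of 40.0 (rank 355), with the summit 179 bp after the start. HSP90B1, which encodes GRP94, the HSP90 of the same compartment, lies on chromosome 12 from 103930410 to 103947926 on the plus strand. Its peak, from 103930458 to 103930593, was enriched 4.99-fold (rank 1765) at a −log10 q of 44.5 (rank 298), with the summit 96 bp after the start. Both peaks were below the list median by fold enrichment and above it by −log10 q. A count of 1 peak is common, since of the protein-coding genes with a wild-type peak 29.6% had 2 or more, which is 2.01% of all protein-coding genes. A summit within 500 bp of a listed start is common too. It was found in 69.6% of the 1141 protein-coding genes with a wild-type peak and a listed start.

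The HSP90B1 peak shares 98 bp with MIR3652, a microRNA gene that RefSeq places inside the first part of HSP90B1, so the peak has 2 annotated hosts. The mature hsa-miR-3652 ends upstream of the peak. The 30 bases around the summit are shown because they lie in both genes and hold an AUG, in capitals, that begins 106 bases after the HSP90B1 start and 10 bases after the summit. They are at chr12:103930491-103930520 on the plus strand, written as RNA.
HSP90B1: acuugagacucaccggccgcacgccAUGag
If each peak is given only to the shortest gene that holds its summit, this peak goes to MIR3652 and HSP90B1 has none.

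The mitochondrial chaperones held 2 or 3 wild-type peaks each, and 0.823% of all protein-coding genes, or 12.1% of those with a peak, had at least 3. HSPD1 encodes HSP60 and lies on chromosome 2 from 197486584 to 197500274 on the minus strand. Its peaks had fold enrichments of 9.77, 27.1 and 19.2 from 5′ to 3′ and −log10 q values of 24.1, 66.0 and 54.7. The middle one, from 197498639 to 197498842, had the highest fold enrichment of all 26, rank 20 of 2149, and ranked 134 by −log10 q. All 3 summits lay in the first 22.4% of the span. The first began 10 bp after the second listed start, at 197499840. Its opening bases are shown, as for HSP90AB1, because both peaks begin at the same distance from a listed start. They are at chr2:197499801-197499830 on the minus strand.
HSPD1: ccgccgacgacctgtctcgccgagcgcacg

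HSPE1 encodes HSP10, the lid of the HSP60 chamber, and is transcribed away from HSPD1, from 197500379 to 197503449 on the plus strand of chromosome 2. Its 2 peaks had fold enrichments of 8.38 and 6.22 and −log10 q values of 9.08 and 7.03, ranks 1738 and 1921 of 2149. They were the lowest 2 of the 26 by −log10 q. They ran from 197500432 to 197500718 and from 197503239 to 197503368, the first summit 199 bp after the start and the second 95.6% along the span. Both peaks also lie in HSPE1-MOB4, an annotated read-through gene that shares the HSPE1 start. HSPD1 and HSPE1 thus each had a summit within 500 bp of a listed start, on opposite strands, and the HSPD1 peak began at its second listed start.

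HSPA9 encodes mortalin, the HSP70 of the mitochondrial matrix, and lies on chromosome 5 from 138553756 to 138575401 on the minus strand. Its 3 peaks had fold enrichments of 7.21, 15.6 and 9.61 from 5′ to 3′ and −log10 q values of 23.2, 31.5 and 23.0, highest on both measures from 138570958 to 138571075 (ranks 238 and 518). The first summit lay 120 bp after the start, and the others 4396 and 15432 bp after it. The first peak lies wholly within LOC105379193, a long non-coding RNA gene that covers this end of HSPA9. HSPA9 hosts the small nucleolar RNA genes SNORD63B and SNORD63, and the nearest peaks were 849 and 1027 bp from them.

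By position, 6 of the 8 genes had a summit within 500 bp of a listed start: HSP90AB1, HSP90B1, HSPA5, HSPA9, HSPD1 and HSPE1. Over the 1141 protein-coding genes with a wild-type peak and a listed start, 69.6% did, so the share of 75.0% is near the background. Counted by peak, 6 of 26 summits (23.1%) lay within 500 bp of a listed start, against 47.4% of the 1747 in protein-coding genes with a listed start. Genes with several peaks count more in a share by peak, and it was 10.1% of 89 summits in the 11 genes with a listed start among the 14 protein-coding genes with at least 7 wild-type peaks. In the last 20% of the span were 6 of 26 summits (23.1%) against 21.6% of all. These lay in HSP90AB1, HSP90AA1, HSPA8 and HSPE1, 4 of the 8 genes, against 25.9% of genes. HSP90AB1 and HSPE1 had a summit both within 500 bp of a listed start and in the last 20%, 2 of the 8 (25.0%). The share over the 1141 genes was 12.1%. For HSP90AB1 that start was the middle one listed. A gene with several peaks has more summits to meet these conditions, and 29.6% of protein-coding genes with a wild-type peak had 2 or more. All members but HSP90AA1, HSP90B1 and HSPA5 did, so the shares by gene were not compared at equal peak number.

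Sequence upstream of the starts was searched for the E-box CACGTG and for elements of the stress responses, on both strands of the 250 bases before each listed start. The E-box was present for 4 of the 8 genes, HSP90B1, HSPA9, HSPD1 and HSPE1, against 9.73% of 15843 protein-coding genes with a listed start. HSPD1 and HSPE1 share a single E-box, so these are 3 sites. For HSPD1 the E-box lay before the start at 197500274, and the first summit lay 494 bp after that start. Its peak began 10 bp after the other listed start, 197499840, which had no E-box match. The stretch between the divergent starts of both genes is shown with the E-box in capitals. It is chr2:197500275-197500378 on the plus strand.
HSPD1 and HSPE1: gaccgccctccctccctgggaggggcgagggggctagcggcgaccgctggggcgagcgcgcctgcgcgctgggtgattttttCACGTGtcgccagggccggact
For HSPA9 the E-box lay 19 to 14 bases before the start, in the 250 bases at chr5:138575402-138575651 on the minus strand.
HSPA9: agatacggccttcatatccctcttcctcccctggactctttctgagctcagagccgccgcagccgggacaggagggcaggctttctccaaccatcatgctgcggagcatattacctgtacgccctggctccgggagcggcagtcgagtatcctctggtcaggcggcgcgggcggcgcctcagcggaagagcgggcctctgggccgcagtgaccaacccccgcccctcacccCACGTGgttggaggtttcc
A match is a match of letters and was not tested for binding of MYC to DNA.

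The endoplasmic reticulum stress element, searched as CCAAT followed after any 9 bases by CCACG, which serves the response to unfolded protein in that compartment, was found for HSPA5 and HSP90B1 and for 0.133% of the 15843 genes. HSPA5 had 1 match and HSP90B1 had 2, 1 of them on the other strand. The element was chosen for its link to that compartment, so its presence in these 2 genes is background and not a result of the peaks. These 2 genes are also the members with a single peak at the start, and a link between element and peak was not tested. Their upstream 250 bases are shown with the elements in capitals, for HSP90B1 also the E-box at its far end. They are chr9:125241344-125241593 on the minus strand and chr12:103930160-103930409 on the plus strand.
HSPA5: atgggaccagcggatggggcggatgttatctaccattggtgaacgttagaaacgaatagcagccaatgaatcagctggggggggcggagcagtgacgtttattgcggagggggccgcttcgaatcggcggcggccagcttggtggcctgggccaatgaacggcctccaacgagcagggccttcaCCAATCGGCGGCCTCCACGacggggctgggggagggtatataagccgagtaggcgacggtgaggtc
HSP90B1: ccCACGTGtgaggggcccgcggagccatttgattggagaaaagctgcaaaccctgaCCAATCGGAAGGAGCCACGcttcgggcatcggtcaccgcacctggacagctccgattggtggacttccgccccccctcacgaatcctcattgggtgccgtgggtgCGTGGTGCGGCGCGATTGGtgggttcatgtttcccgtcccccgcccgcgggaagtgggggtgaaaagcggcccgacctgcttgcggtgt
Paired half-sites of the heat shock element, TTCNNGAA, which overlap with the reverse pair GAANNTTC where 3 half-sites follow each other, were found for HSP90AA1, HSP90AB1, HSPA8 and HSPD1 and for 7.64% of genes. The reverse pair was found for the same 4 members and for 6.46% of genes. Of the starts with these matches, only that of HSPD1, at 197499840, had a summit within 500 bp. For HSP90AB1 the matches lay before the start at 44247943 and not before the one with the peak, at 44247101. The TATA box as TATAAA was found for none of the 8 and for 11.9% of genes. Only these exact letters were searched, so a near match such as tatataa in the HSPA5 stretch above was not counted.

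**Figure D3:**
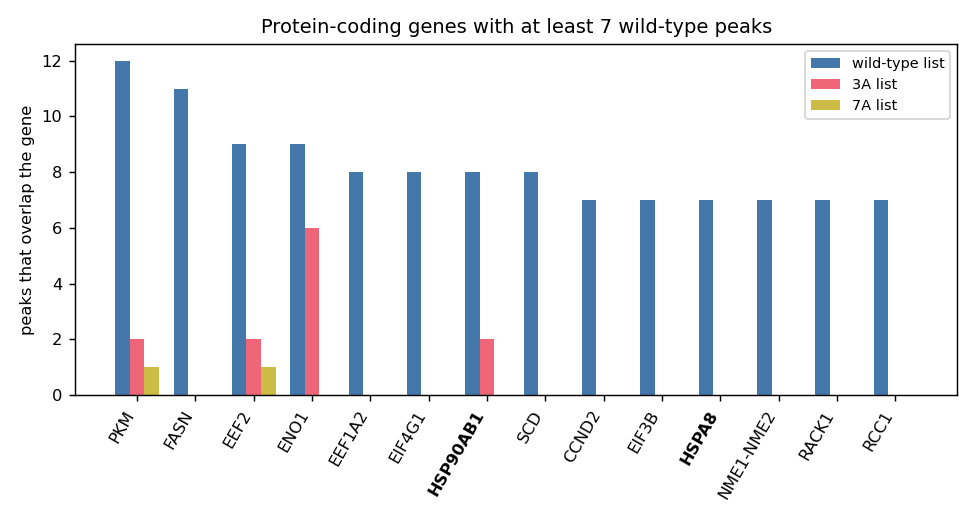
Number of peaks (y axis) in the wild-type, 3A and 7A lists for each of the 14 protein-coding genes with at least 7 wild-type peaks (x axis), with the 2 chaperone genes in bold. HSP90AB1 has 8 wild-type and 2 3A peaks, and HSPA8 has 7 wild-type peaks and no mutant peak.

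HSP90AB1 and HSPA8 were among 14 protein-coding genes with at least 7 wild-type peaks. Of these 14, 4 (28.6%) had a 3A peak, HSP90AB1 among them, and 2 (14.3%) had a 7A peak. Per kb of span HSPA8 had 1.41 and HSP90AB1 1.04 wild-type peaks, the highest 2 of the 14, followed by RACK1 (0.999), a ribosome-bound scaffold protein gene, and the elongation factor gene EEF2 (0.957). At equal peak number this measure is higher for a shorter span. Genes were also ranked by likeness, as the sum over the 3 lists of the differences in peak number and then by the highest wild-type fold enrichment. No gene had the counts of HSP90AB1, and 4 genes came closest at the same sum of 2. These were EEF1A2, SCD and EIF4G1, with 8 wild-type peaks and no mutant peak, and EEF2, with 9 wild-type, 2 3A and 1 7A peak. HSPA8 shared its counts with 5 genes, and CCND2, RACK1 and RCC1 were nearest in fold enrichment. HSPA9 and HSPD1 shared theirs with 80 genes, HSPE1 with 219, and the 3 members with a single peak with 920, so for these the counts are not distinctive. Nearest in fold enrichment were HNRNPM, SRM and PSMB5 for HSPA9, and MMP24-AS1-EDEM2, DIPK1A and EBNA1BP2 for HSPD1. For HSPE1 they were HK1, RPL35 and HSPE1-MOB4, the read-through gene, which is alike because it holds the same 2 peaks. They were KLHDC3, EIF3K and ZMYND19 for HSP90AA1, TMED10, ENAH and SCARF2 for HSP90B1, and DUSP2, COL27A1 and PSME3 for HSPA5.

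**Figure D4:**
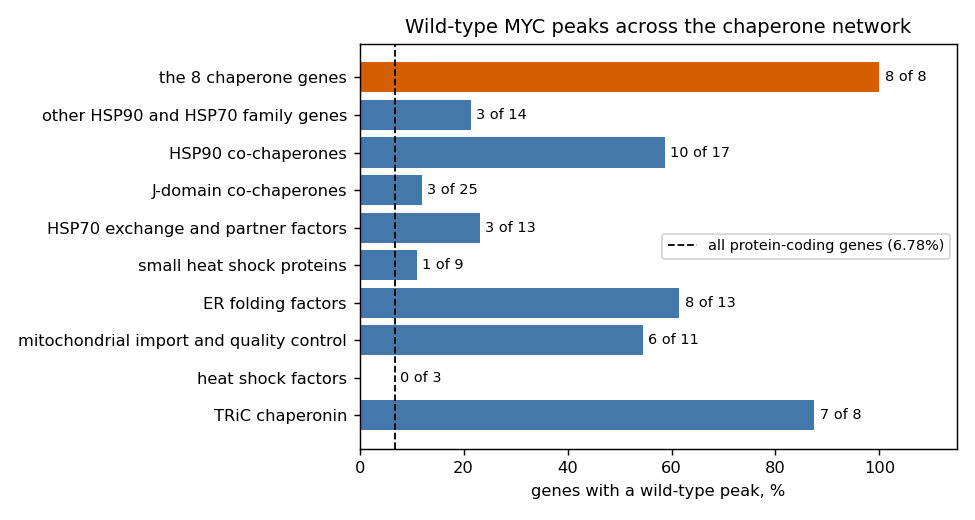
Percentage of genes with a wild-type peak (x axis) in the 8 chaperone genes (orange) and in 9 lists of related genes (blue), with counts at the bars and a dashed line at 6.78%, the value over all protein-coding genes. The HSP90 co-chaperones, the folding factors of the endoplasmic reticulum, the mitochondrial list and the TRiC chaperonin lie above 50%, and the heat shock factors have none.

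Across the wider chaperone network, 41 of 113 genes (36.3%) had a wild-type peak. Of 14 other HSP90 and HSP70 family genes, 3 did: TRAP1, the mitochondrial HSP90, with 6 peaks and a highest fold enrichment of 23.7, and the exchange factors of the HSP70 family HSPA4 (2 peaks) and HSPH1 (2 peaks). The stress-inducible genes HSPA1A, HSPA1B and HSPA6 had none, and HSPA1A and HSPA1B are near-identical copies between which reads are hard to place. Of 17 HSP90 co-chaperones, 10 had a peak, led by FKBP4 (18.2), NUDC (15.9), PTGES3 (15.5), FKBP5 (14.5), CDC37, which brings kinases to HSP90 (14.1), and PPP5C (11.2). FKBP4 had 5 peaks, and its highest −log10 q ranked 61 of 2149.

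The partners of HSP70 were less covered. Of 25 J-domain genes, 3 had a peak, DNAJA2 (11.5), DNAJA1 (9.08) and DNAJC2 (6.68), and of 13 exchange and partner factors 3 had one, BAG2 (12.8), STUB1 (7.51) and BAG1 (5.96). The 12.0% of the J-domain genes is close to the 6.78% of all protein-coding genes. Among small heat shock proteins 1 of 9 had a peak, HSPB1, with a fold enrichment of 2.85. The heat shock factor genes HSF1, HSF2 and HSF4 had none.

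In the endoplasmic reticulum, 8 of 13 folding factors had a peak. The highest fold enrichments were those of CANX, the lectin chaperone calnexin (23.2), TXNDC5 (16.6), ERO1A (11.5), SDF2L1 (9.64), MANF (6.22) and CALR (5.83). PPIB, a prolyl isomerase, had 2 wild-type peaks and 1 3A peak. In mitochondria, 6 of 11 genes of import and protein quality control had one, led by TOMM20 (13.5), the protease gene LONP1 (13.0), YME1L1 (10.6), AFG3L2 (7.14), SPG7 (6.87) and TOMM70 (3.55). Of 8 subunits of TRiC, the cytosolic relative of HSP60 that folds actin and tubulin, 7 had a peak, 24 peaks in all, and the median number per gene was 2.50, as in the 8 chaperone genes. The highest fold enrichments were those of CCT3 (21.8), CCT4 (20.1), CCT5 (19.7), TCP1 (16.7), CCT6A (16.1) and CCT7 (15.1). Of the TRiC genes with a peak and a listed start, 6 of 6 had a summit within 500 bp of one. A summit in the last 20% of the span was found in 4 of these 6, and 4 of 6 (66.7%) had both. TCP1 was the TRiC gene with a 3A peak. None of the 113 genes had a 7A peak. The median number of wild-type peaks was 1.00 for the co-chaperones, the folding factors and the mitochondrial list, and 0 over all 113.

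**Figure D5:**
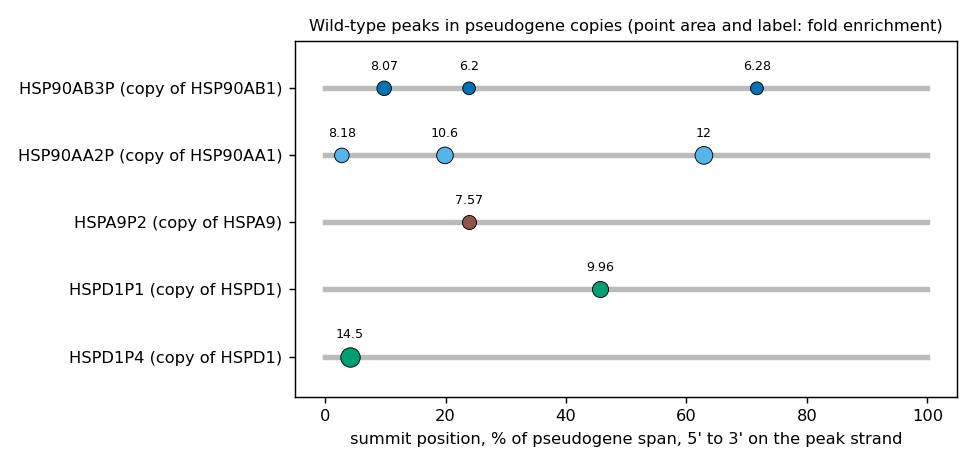
Wild-type summits in 5 pseudogenes named for a chaperone gene, as a percentage of the pseudogene span from 5′ to 3′ on the strand of the peak (x axis), with the authors' fold enrichment at each point and as its area. HSP90AB3P and HSP90AA2P hold 3 peaks each and the other 3 pseudogenes 1 each.

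Copies of the chaperone genes elsewhere in the genome also held wild-type peaks. RefSeq lists 86 pseudogenes named after the 8 genes, and 5 of them had 9 wild-type peaks, with no mutant peak in any. The share of 5 in 86 compares with 0.874% of 17051 pseudogenes of all kinds. HSP90AA2P, on chromosome 11 from 27888171 to 27891092, held 3 peaks, with fold enrichments of 8.18, 10.6 and 12.0 from 5′ to 3′, whereas HSP90AA1 itself held 1. HSP90AB3P, on chromosome 4 from 87891748 to 87894288, held 3, with 8.07, 6.20 and 6.28. HSPD1P4 on chromosome 12 held 1 (14.5), HSPD1P1 on chromosome 5 held 1 (9.96) and HSPA9P2 on chromosome 18 held 1 (7.57). The 20 HSPA8 and 28 HSPE1 pseudogenes had none. HSP90AA2P and HSP90AB3P do not begin with the full symbol of a member and were named after their values were seen. Both are among the 5, so the share of 5 in 86 is a description. Reads of a messenger RNA and of its processed copies are similar, so the gene of origin of these 9 peaks is uncertain, and it was not tested.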

How the data were processed

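Titles gave the group of each FLAG eCLIP library of U2OS cells. The build was hg38 and the tools included cutadapt, BWA and MACS2, per the submitters' processing notes. How they were set, which control served and whether replicates were pooled is not given in the sources used here. A list of peaks for each allele with doxycycline was used as deposited by the authors. Its values are the authors' fold enrichment of a peak, a ratio over a background that is not named, the deposited −log10 q, a deposited score that was not used, and the summit offset in bp. Ranks were taken within a list only.

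Starts were turned to 1-based positions. RefSeq's table of GRCh38.p14, a patch of the hg38 assembly, gave gene spans, and strands, start sites and upstream sequence came from its promoter table, which holds 15843 protein-coding genes. Overlap code was tested on simulated intervals. No test between alleles was made, since each has 1 list. The members, gene lists and alternatives were chosen with earlier results of these data known. All 8 members were named, and of each gene list up to 6 genes with a peak by fold enrichment, pseudogenes and genes inside a member with a peak, and the 3 genes most like each member. Named outside this rule, after their values were seen, were PPIB for its 3A peak, EEF2 for its tie, and genes without a peak. The same holds for the pseudogenes HSP90AA2P and HSP90AB3P. Python 3.11.15, pandas 2.3.3, NumPy 2.4.6, SciPy 1.17.1 and matplotlib 3.10.9 were used.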

Additional observations from a re-analysis of the deposited data

How the results depend on the processing

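Of 60 alternative values of 14 results, 54 stayed within 1.5 times the reported count or within the interval of the reported median. Some of these could not move. Stricter rules cannot lower the 7A counts of 0. A −log10 q of at least 5 removes none of the 26 wild-type chaperone peaks, whose lowest value was 7.03. Without the peaks under their list's median fold enrichment there were 17 of 26 wild-type chaperone peaks, 1 of 2 3A peaks, 26 of 41 network genes, 2 of 5 summits within 500 bp of the start of the gene span and 3 of 6 summits in the last 20% of the span, a filter that removes peaks by construction. Ranking by −log10 q, the median percentile was 87.5 instead of 62.4. The nearest listed start in place of the start of the span, chosen after seeing the data, gave 6 summits. With the shortest gene as host, 24 wild-type peaks in 7 members remained. No paired analysis was possible because the lists hold no values per replicate, which also meant that leaving out a replicate could not be tried.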
